A study of Homo sapiens with 6 samples.

Results

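Laminins are trimeric proteins of the basement membrane and integrins are the paired cell surface receptors that hold cells to them, and the genes of both families were followed in LoVo cells after depletion of the long non-coding RNA *SNHG15*. The members were chosen by a rule on symbols, with earlier results of these data known. The rule took the protein-coding genes named *LAMA*, *LAMB* or *LAMC* with a digit, and those named *ITGA* or *ITGB* with a number or with the letters of the named alpha chains. The rule found 38 genes among the 63677 rows of the count table, 12 laminin chains (5 alpha, 4 beta and 3 gamma) and 26 integrin chains (18 alpha and 8 beta), and each of the 38 had a row. LoVo is a long-established cell line from a human colorectal cancer. The cells were transfected with a scramble control siRNA or with both siRNAs against *SNHG15* together, each for 48 h at 25 nM with Lipofectamine, and RNA was sequenced in 3 libraries for each condition. Both groups therefore share the cell line, the transfection and the dose, and differ in the siRNA. The methods call the replicates biological, while the labels name no separate cultures, so the p-values below measure the spread between these libraries.

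A laminin is built from an alpha, a beta and a gamma chain, which join inside the cell and are secreted to form a sheet under epithelium, muscle and vessels. An integrin is built from an alpha and a beta chain, and the pair decides which ligand is bound. The beta chain encoded by *ITGB1* joins most alpha chains and gives receptors for laminin, collagen and fibronectin, while *ITGB2* pairs are found on leukocytes, the *ITGA2B* and *ITGB3* pair on platelets, and the *ITGA6* and *ITGB4* pair in the hemidesmosomes of epithelium. In the gut epithelium, a laminin that holds the *LAMA3* and *LAMB3* chains is a known product of the cells themselves.

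The libraries held between 3446922 and 10256710 counted reads, the fewest in scramble replicate 3, and the 38 genes took between 0.181% and 0.246% of them. *SNHG15* itself had 2473, 2783 and 864 raw counts with scramble and 557, 578 and 742 with siRNA, and its log2 fold change was -1.74 (SE, standard error, 0.12; adjusted p = 2.62e-05, edgeR's quasi-likelihood test). The cell line label was set against 12 marker genes of colorectal epithelium. *KRT8*, *KRT18*, *CDX2* and *CDH1* were detected in every library, but 7 of the 12, *EPCAM*, *KRT19*, *KRT20*, *CDX1*, *VIL1*, *CEACAM5* and *GPA33*, had 3 or fewer counts in every library, and *KRT19*, *KRT20*, *CDX1* and *VIL1* had 0. The summed level of the 12 lay between 103 and 110 CPM (counts scaled to the size of the library) with scramble and between 107 and 117 CPM with siRNA. Few or no reads were thus counted in these libraries on several genes that define the labelled cell type. What part that has in the values below was not tested. A further 20 genes that nearly every cell uses were read. None of them was at 3 or fewer counts in every library, and *ACTB*, *RPLP0* and *TUBB* were at 841, 1018 and 547 CPM as the mean of all libraries. *GAPDH*, *EEF1A1* and *TUBA1B*, which are abundant in most cells, were at only 24.4, 29.1 and 1.72 CPM, beside a median of 23.3 CPM over all genes tested. A transcript can therefore be counted far lower than its usual abundance in these files, and for a gene at or near 0 a low level and a loss of reads in the alignment or counting cannot be told apart. Most markers of other cells that carry integrins were at the floor. In every library 11 of 12 leukocyte, 7 of 8 fibroblast, 5 of 7 endothelial and 7 of 8 platelet markers had 3 or fewer counts, and the summed leukocyte level reached at most 0.82 CPM with scramble and 0.97 CPM with siRNA. The summed fibroblast level reached 0.605 and 1.25 CPM and the platelet level 0.586 and 0.822 CPM. The endothelial markers summed to between 5.44 and 6.56 CPM with scramble and between 6.76 and 7.21 CPM with siRNA, mostly from *ESAM*, which did not pass the test (log2 fold change 0.23, adjusted p = 0.553, edgeR). Their part in the results was not tested.

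At an adjusted p under 0.05, 2 of the laminin and integrin genes changed, and both rose with the *SNHG15* siRNAs. They were *ITGB1*, the beta chain shared by most laminin and fibronectin receptors, and *ITGAX*, an alpha chain best known from myeloid and dendritic cells. *ITGB1* went from 155 ± 27.6 to 397 ± 150 CPM and *ITGAX* from 27.3 ± 5.91 to 54.2 ± 5.84 CPM (SD, n = 3). No laminin gene was called in either direction. In bulk RNA, a change in the number of cells that carry a transcript and a change in the amount per cell cannot be told apart.

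These 2 calls stand among 17 members that had enough reads to be tested, 6 laminin and 11 integrin genes, which is 11.8% of them. Of all 12507 genes tested, 5.36% were called, 3.13% higher and 2.23% lower with the siRNAs, so the members' share rests on a difference of 1 or 2 genes and is not read as a property of the families. At an unadjusted p under 0.05, 7 of the 17 passed, 5 higher and 2 lower, beside 22.5% of all genes. The siRNA libraries lay wholly to one side of the scramble libraries in 5 of the 17, beside 28.8% of all genes. They lay above in *ITGB1*, *ITGAX*, *ITGA7* and *LAMB2*, beside 14.7% of all genes, and below in *LAMC1*, beside 14.1%. The log2 fold change was positive in 8 of the 17 and in 50.1% of all genes, and its median was -0.02 over the 17 and 0.00 over all genes. By family, 5 of 6 laminin genes had a negative and 7 of 11 integrin genes a positive log2 fold change. The counts of higher and of positive genes include *ITGA10* and *ITGAV*. Both passed the filter only through the siRNA libraries, the group where they are high, so these counts are not read as support for a rise.

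**Figure D1:**
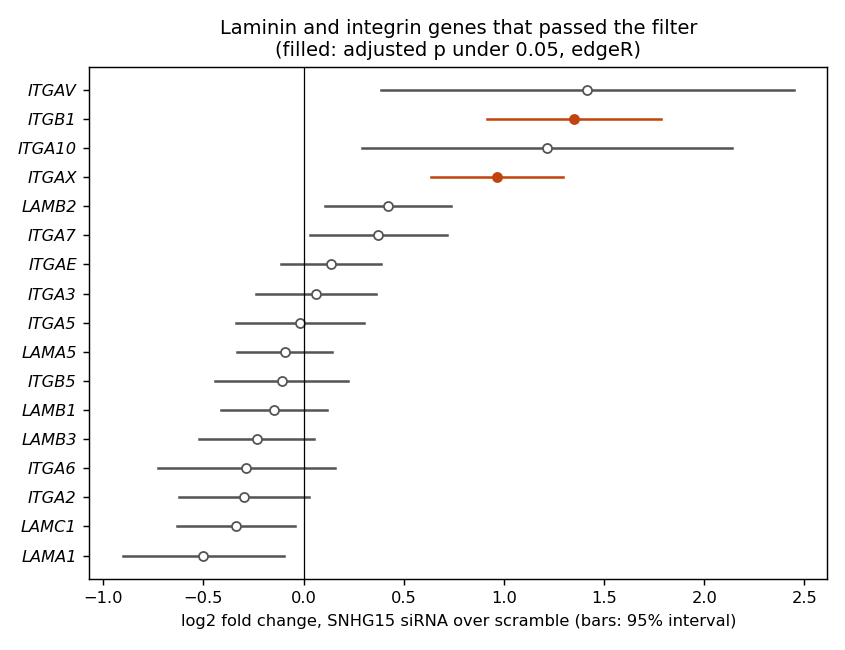
Log2 fold change (SNHG15 siRNA over scramble) of the 17 laminin and integrin genes that passed the filter on low counts, with bars for the 95% interval; filled points passed an adjusted p of 0.05 in edgeR. *ITGB1* and *ITGAX* are the filled points, and *ITGAV* and *ITGA10* lie as far to the right with much wider bars. *ITGAV* and *ITGA10* passed the filter only through the siRNA libraries. The intervals are normal ones from the SE and are narrower than the test implies. That of *ITGA7*, 0.03 to 0.72, excludes 0 at an unadjusted p of 0.0523 (edgeR).

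The other 21 members did not pass the filter, and most were at the count floor, set at 3 counts in a library. *ITGA4*, *ITGA8*, *ITGA9*, *ITGA11*, *ITGAD*, *ITGB2*, *ITGB6*, *LAMA3*, *LAMA4* and *LAMB4* had 0 counts in all 6 libraries. *ITGA2B*, *ITGAL*, *ITGB3*, *ITGB4*, *ITGB7*, *ITGB8* and *LAMA2* had between 0 and 3 counts in each. These 17 genes give no fold change. The floor of 3 counts is worth 0.298 CPM in the deepest and 0.907 CPM in the shallowest library, as counted reads and with the doubt about the counting given above. *ITGAM* had 0, 0 and 2 counts with scramble and 0, 0 and 4 with siRNA, so that only siRNA replicate 3 exceeded the floor. *LAMC3* was at the floor with scramble alone. *ITGA1* was above the floor but under the filter, with 6 to 11 counts in every library.

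**Figure D2:**
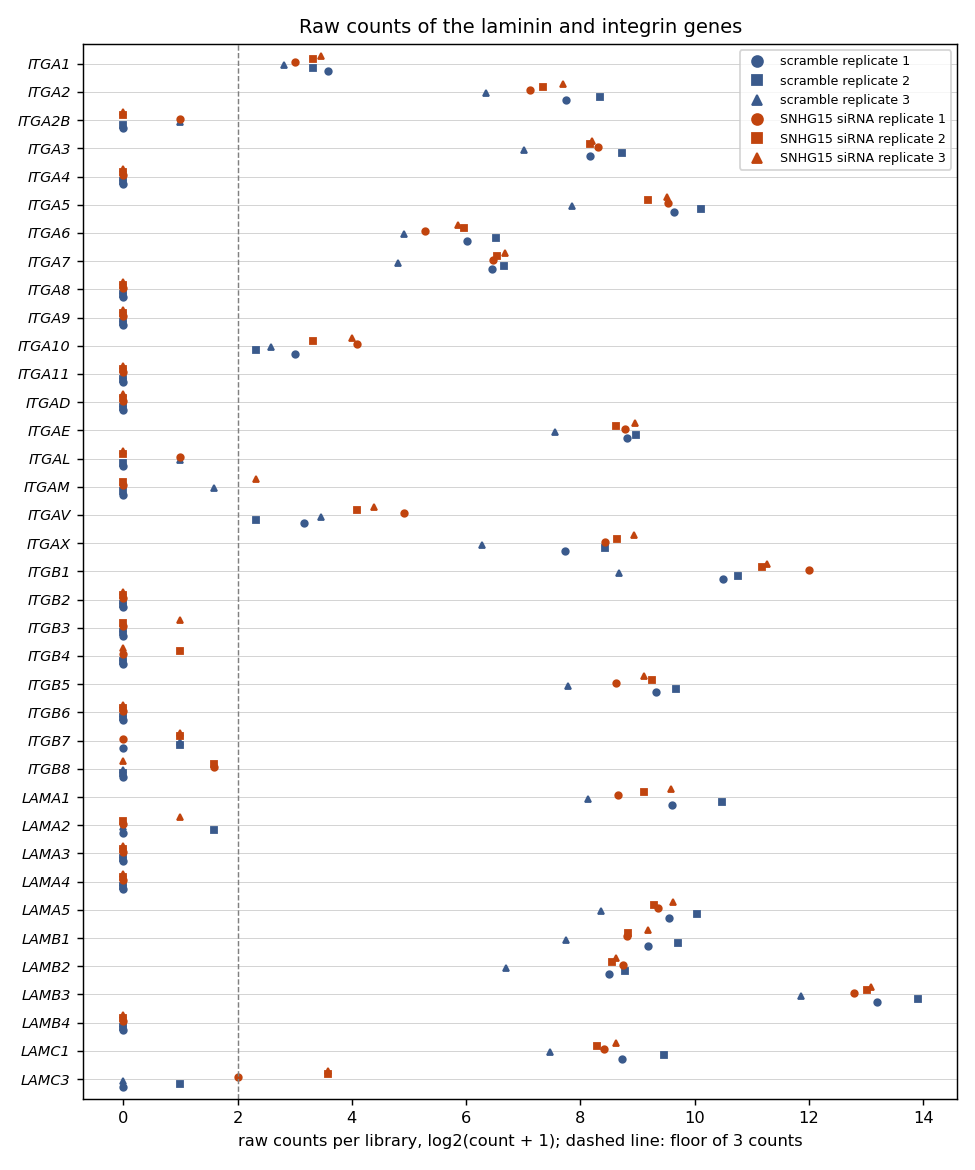
Raw counts of 37 of the laminin and integrin genes in each library, as log2(count + 1), with the floor of 3 counts as a dashed line; blue marks are scramble and red marks SNHG15 siRNA libraries, and the shape is the replicate number. 17 genes stay at or left of the line in every library, *LAMC3* is right of it only in siRNA replicates 2 and 3, and *LAMB3* has the most counts.

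Among the laminin alpha chains, *LAMA1* and *LAMA5* were measured and neither passed the test. *LAMA1*, the alpha chain of the embryonic laminin that shares its beta and gamma partners with many others, had 90.9, 141 and 85.0 CPM with scramble and 56.1, 79.7 and 89.97 CPM with siRNA. The conditions overlapped, since siRNA replicate 3 lay above scramble replicate 3, and the log2 fold change was -0.50 (SE 0.21, adjusted p = 0.171, edgeR). *LAMA5*, the main alpha chain of adult basement membranes, had 87.7, 105 and 99.2 CPM with scramble and 90.7, 89.8 and 92.6 CPM with siRNA. Its 3 siRNA libraries were almost equal, and the log2 fold change of -0.09 had a 95% interval (normal, from the SE) from -0.33 to 0.14. *LAMA2*, the chain of muscle and nerve, reached 2 counts at most, and *LAMA3* and *LAMA4* had none.

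The laminin beta chains held the most abundant member. *LAMB3*, the beta chain of the epithelial laminin, lies on the minus strand at chr1:209788215-209825770 (GRCh37) and gave 54.2% of all reads counted on the 38 genes. Its level was 1090.4, 1521 and 1123 CPM with scramble and 976, 1185 and 1016 CPM with siRNA. The siRNA libraries overlapped the scramble libraries, with the highest value in scramble replicate 2, and the log2 fold change was -0.23 (interval -0.52 to 0.05, adjusted p = 0.366, edgeR). *LAMB1*, the beta chain shared by most laminins, had a log2 fold change of -0.15 (adjusted p = 0.557). *LAMB2*, its counterpart in kidney and muscle basement membranes, had 42.3, 43.7 and 31.1 CPM with scramble and 59.5, 53.7 and 46.0 CPM with siRNA. All 3 siRNA libraries were above the scramble libraries, but the log2 fold change of 0.42 (SE 0.16) did not pass the test (adjusted p = 0.140, edgeR). *LAMB4*, which lies 20.3 kb from *LAMB1* on the same strand of chromosome 7, had 0 counts.

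Among the gamma chains, *LAMC1*, the partner of most alpha and beta chains, had 49.7, 70.1 and 53.5 CPM with scramble and 46.9, 44.9 and 46.2 CPM with siRNA. The siRNA libraries all lay below the scramble libraries and close together, and the log2 fold change was -0.34 (SE 0.15, adjusted p = 0.208, edgeR).

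*LAMC3*, a gamma chain of few tissues, had 0, 1 and 0 raw counts with scramble and 3, 11 and 11 with siRNA. It is one of the genes the study followed by qRT-PCR, so it was not picked independently of these libraries. The paper reports it as deregulated in that assay, with either siRNA alone or with both combined. Summed over the libraries, 25 siRNA counts stood against 1 scramble count, a ratio of 25.6 after scaling to library totals, with a 95% counting interval from 4.20 to 1052. The interval covers counting error only and not the spread between libraries. edgeR's filter left the gene untested. Without the filter the fitted log2 fold change was 4.14 (adjusted p = 0.000733, edgeR), and DESeq2 gave it no adjusted p. The p-values of the fit without the filter are those of a normal distribution for the fold change over its SE. They hardly reflect the spread of a single gene between libraries, so they are not read as equal to the other tests. Where a library is left out the gene can pass the filter only through the siRNA libraries with 11 counts, the group where it is high, so those fits are not used as a test of it. The level was low under either condition. The stretch that the study's primers amplify was placed on the genome to show which part of the transcript that assay reads. It joins exons 13 and 14 of 28 in the coding sequence, lies on the plus strand at chr9:133936548-133942375 (GRCh37) with an intron between its ends, and is 92 bases long in the transcript. Of the 6 annotated transcripts, 1 holds it exactly. The capitals mark the sites of the primers.
LAMC3 product: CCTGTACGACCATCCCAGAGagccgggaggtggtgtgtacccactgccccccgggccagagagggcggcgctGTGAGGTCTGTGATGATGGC

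The integrin beta chains were dominated by *ITGB1*. The gene lies on the minus strand at chr10:33176201-33294720 (GRCh37). Its raw counts were 1445, 1738 and 408 with scramble and 4104, 2316 and 2471 with siRNA, and its level was 169, 173 and 123 CPM against 569, 333 and 290.2 CPM. Every siRNA library was above every scramble library, and siRNA replicate 1 was far above the other siRNA libraries, which gave the siRNA group the wider spread. The log2 fold change was 1.35 (SE 0.22, interval 0.91 to 1.79, adjusted p = 0.00575, edgeR), the 85th smallest p of the 12507 genes tested. siRNA replicate 1 was also the library farthest out on the first principal component of all genes, at 39.1, with the other siRNA libraries at 11.5 and 14.3 and the scramble libraries between -24.0 and -17.0. Without it, the log2 fold change of *ITGB1* was 0.99 (adjusted p = 0.00130, edgeR), and over the 6 fits that omit a library it ran from 0.99 to 1.54 and passed the test each time.

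*ITGB5*, the chain that joins *ITGAV* to bind vitronectin, was the only other beta chain measured. It had 74.8, 81.3 and 66.5 CPM with scramble and 54.5, 88.0 and 64.8 CPM with siRNA. Its siRNA libraries lay on both sides of the scramble libraries, and the log2 fold change was -0.11 (interval -0.44 to 0.22, adjusted p = 0.741, edgeR). The remaining beta chains, *ITGB2*, *ITGB3*, *ITGB4*, *ITGB6*, *ITGB7* and *ITGB8*, were at 3 or fewer counts in every library.

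The start of *ITGB1* is shared with *ITGB1-DT*, a long non-coding RNA transcribed the other way, whose annotated start is 207 bp from that of the canonical *ITGB1* transcript and whose exons overlap those of *ITGB1* over 401 bp, 2.75% of the *ITGB1* exon bases. *ITGB1-DT* had 364, 471 and 82 raw counts with scramble and 127, 170 and 225 with siRNA. As a level this was 42.7, 46.8 and 24.8 CPM against 17.6, 24.5 and 26.4 CPM, so the conditions overlapped, with siRNA replicate 3 above scramble replicate 3. The log2 fold change was -0.77 (SE 0.22) and missed the threshold (adjusted p = 0.0585, edgeR). Without scramble replicate 3 it was -0.97 and passed (adjusted p = 0.0335). It also passed with DESeq2 (adjusted p = 0.0238), without the filter (adjusted p = 0.000307, under the limit given for *LAMC3*) and with the GC offset (adjusted p = 0.0489). It did not pass with RLE or upper-quartile factors, at least 10 counts in every library, or the exon length offset (adjusted p = 0.0562 to 0.0743, edgeR). The replicate block, alone or with the GC offset, gave 0.106 and 0.0917. Omitting any other library also gave no pass (adjusted p = 0.0528 to 0.262). The kit keeps the strand, but whether the counting used it is not given in the sources used here, so reads in the shared stretch cannot be assigned with certainty. *ITGB1-DT* is not a laminin or integrin gene and was looked at because it overlaps one. The promoter window of *ITGB1* at this start is printed to show this arrangement. A second RefSeq window of the gene, at chr10:33224437-33224736 (GRCh37), holds 0 bases in exons of *ITGB1-DT* and is not printed. The printed window runs from 250 bases before to 50 after the start, as RefSeq gives it, on the minus strand at chr10:33247109-33247408 (GRCh37). The capitals mark the 44 bases that lie in exons of *ITGB1-DT*.
ITGB1 promoter: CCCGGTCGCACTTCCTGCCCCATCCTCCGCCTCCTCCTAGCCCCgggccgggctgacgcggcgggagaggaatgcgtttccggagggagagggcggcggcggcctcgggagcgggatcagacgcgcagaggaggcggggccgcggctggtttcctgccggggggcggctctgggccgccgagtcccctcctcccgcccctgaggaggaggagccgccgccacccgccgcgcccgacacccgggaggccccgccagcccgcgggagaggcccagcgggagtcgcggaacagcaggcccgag

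Neither the E-box CACGTG nor the AP-1 site TGANTCA, read on both strands with C or G at its N, occurs in this window. Among the 26 promoter windows found for members, 1 (*ITGA6*) holds the E-box, beside 7.43% of 27305 promoters, and 2 (*ITGA5* and *LAMA3*) hold the AP-1 site, beside 4.92%. These are matches of letters and no more.

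Among the integrin alpha chains, *ITGAX* rose. The gene lies on the plus strand at chr16:31366455-31394320 (GRCh37). Its raw counts were 210, 343 and 77 with scramble and 342, 398 and 492 with siRNA, and its level was 24.6, 34.1 and 23.3 CPM against 47.4, 57.2 and 57.8 CPM. The groups did not overlap, and the spread within each was small beside the distance between them. The log2 fold change was 0.97 (SE 0.17, interval 0.64 to 1.30, adjusted p = 0.00761, edgeR), the 110th smallest p. In the 6 fits that omit a library it ran from 0.88 to 1.18 and passed the test in 5. Without scramble replicate 1 it was 0.88 and lay at the edge of the threshold (adjusted p = 0.0508). The known partner of this chain is *ITGB2*, which had 0 counts in all 6 libraries, and the leukocyte markers were at or near 0 as given above. Its neighbours on the same strand, *ITGAM* at 22.2 kb and *ITGAD* at 10.3 kb, were at 0 to 4 counts.

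**Figure D3:**
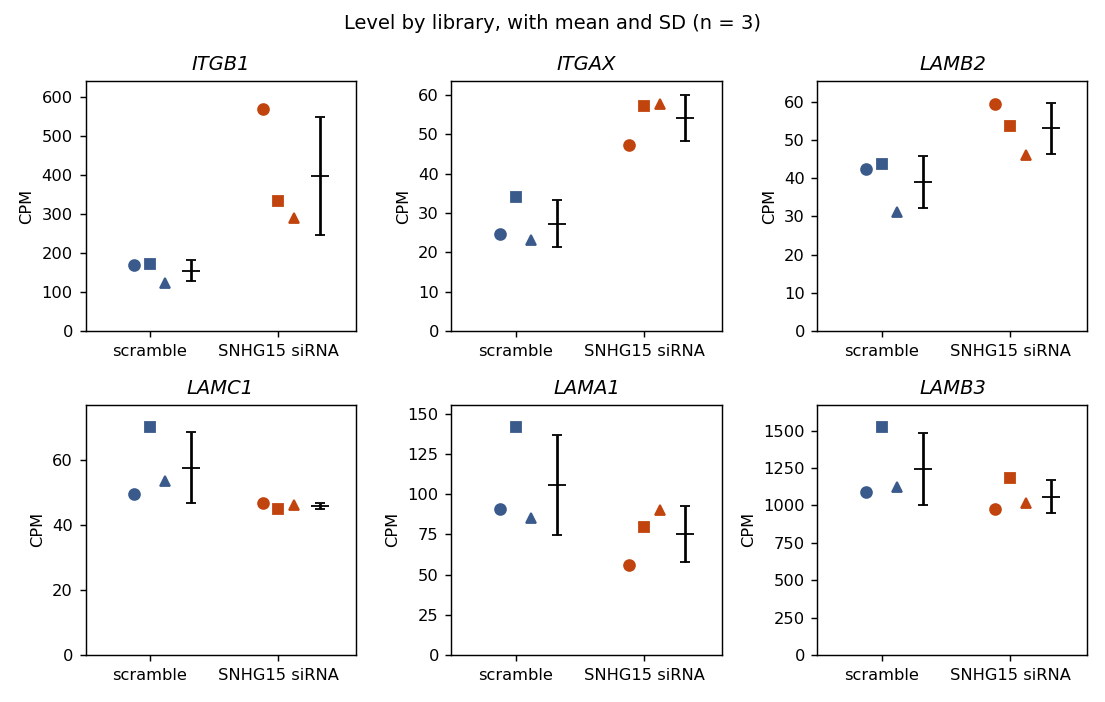
CPM of 6 laminin and integrin genes in each library (blue, scramble; red, SNHG15 siRNA; circle, square and triangle, replicates 1, 2 and 3), with the mean and SD of each group (n = 3) as a black bar beside the points. *ITGB1*, *ITGAX* and *LAMB2* have siRNA libraries wholly above the scramble libraries, *LAMC1* wholly below, and *LAMA1* and *LAMB3* overlap.

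The alpha chains that join *ITGB1* to bind laminin are *ITGA3*, *ITGA6* and *ITGA7*. *ITGA3* had 38.1 ± 4.37 CPM with scramble and 39.8 ± 4.96 CPM with siRNA (SD, n = 3), a log2 fold change of 0.06 with an interval from -0.23 to 0.36. *ITGA6*, which also joins *ITGB4*, had 8.44 ± 0.83 and 6.91 ± 1.76 CPM, a log2 fold change of -0.29 with an interval from -0.73 to 0.16. *ITGA7*, the laminin receptor chain of muscle, had 10.2, 9.95 and 8.16 CPM with scramble and 12.2, 13.2 and 11.98 CPM with siRNA. Its siRNA libraries were all higher, but the log2 fold change of 0.37 did not pass the test (adjusted p = 0.226, edgeR).

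The collagen receptor chains are *ITGA1*, *ITGA2*, *ITGA10* and *ITGA11*, of which *ITGA2* and *ITGA10* were tested. *ITGA2* had 25.0, 32.1 and 24.2 CPM with scramble and 19.1, 23.3 and 24.3 CPM with siRNA, a log2 fold change of -0.30 (adjusted p = 0.305, edgeR). Only siRNA replicate 3 reached the range of the scramble libraries. *ITGA1*, which lies 30.1 kb from *ITGA2* on the same strand, had 11, 9 and 6 raw counts with scramble and 7, 9 and 10 with siRNA, so that the ratio of the summed counts was 1.03 with a counting interval from 0.572 to 1.84.

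*ITGA10* and *ITGAV* had fitted changes close to that of *ITGB1*, but on few reads. Both passed the filter only through the siRNA libraries, where they are high, so their fits are not used as support for a rise. *ITGA10* had 7, 4 and 5 raw counts with scramble and 16, 9 and 15 with siRNA, and *ITGAV*, the chain of the vitronectin receptors, had 8, 4 and 10 against 29, 16 and 20. In both genes scramble replicate 3, the shallowest library, had the highest scramble level, at 1.51 CPM for *ITGA10* and 3.02 CPM for *ITGAV*, and overlapped the siRNA libraries. The log2 fold change was 1.21 (SE 0.47, adjusted p = 0.149, edgeR) for *ITGA10*. It was 1.42 (SE 0.53, adjusted p = 0.132) for *ITGAV*. Single libraries decided both sizes. Without scramble replicate 2 they were 0.76 for *ITGA10* and 0.83 for *ITGAV* (adjusted p = 0.493 and 0.465), and without scramble replicate 3 they were 1.54 and 2.12 (adjusted p = 0.134 and 0.0519). Without the filter *ITGAV* passed (adjusted p = 0.0151), as did *LAMA1* on the lower side (adjusted p = 0.0120), and both of these calls were absent from every fit with a filter and from DESeq2. The limit of the fit without the filter, given for *LAMC3*, holds for both.

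*ITGA5* and *ITGAE* were the most abundant alpha chains per length, and neither passed the test. *ITGA5*, the fibronectin receptor chain, had 93.4, 110 and 69.2 CPM with scramble and 103, 83.4 and 85.5 CPM with siRNA, a log2 fold change of -0.02 with an interval from -0.34 to 0.30. *ITGAE*, the chain that joins *ITGB7* on lymphocytes of the epithelium to bind E-cadherin, had 53.2 ± 3.44 and 58.3 ± 2.26 CPM (SD, n = 3), a log2 fold change of 0.14 with an interval from -0.11 to 0.39. Its exons overlap those of *HASPIN* on the opposite strand over 6.47% of their bases, and *HASPIN* had a log2 fold change of -0.86 (adjusted p = 0.0609, edgeR).

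**Figure D4:**
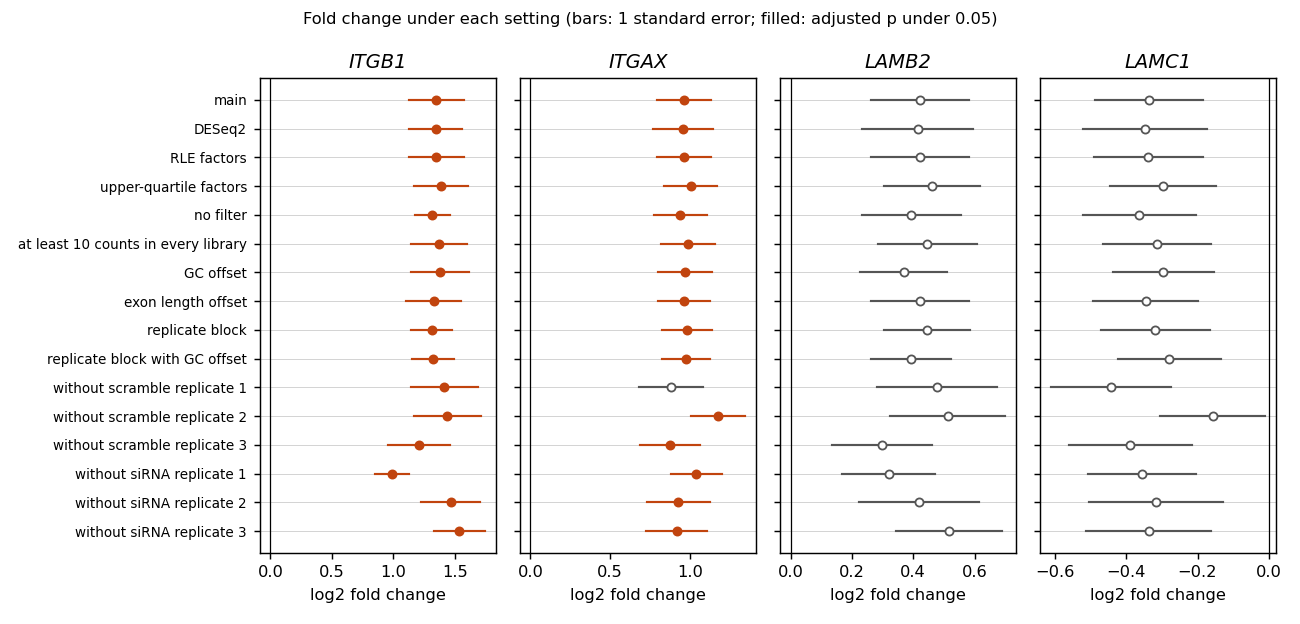
Log2 fold change of *ITGB1*, *ITGAX*, *LAMB2* and *LAMC1* in the reported fit (main), under 9 other settings and with each library left out, with bars of 1 standard error; filled points passed an adjusted p of 0.05. *ITGB1* is filled throughout, *ITGAX* in all but the fit without scramble replicate 1, and *LAMB2* and *LAMC1* in none, although their points keep one sign.

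To compare genes with each other, levels were divided by the length of the canonical transcript and are given as CPM per kb. On this scale *LAMB3* had 310 ± 59.8 with scramble and 264 ± 27.7 with siRNA, above every other member, and *ITGB1* came next with 41.6 ± 7.39 and 106 ± 40.2 (SD, n = 3). *ITGA5* (21.4 with scramble), *ITGB5* (16.7), *ITGAE* (14.0), *LAMB1* (12.7) and *LAMA1* (10.97) followed. The SD of *ITGA5* was 4.87, so its place above *ITGB5* did not exceed its spread, and likewise *LAMA1*, with an SD of 3.22, could not be placed against *LAMB1* or *LAMA5* (8.503).

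Summed over the family, the integrin beta chains had a level of 58.3 ± 8.90 CPM per kb with scramble and 122 ± 37.8 with siRNA, and the share of *ITGB1* in it lay between 68.6% and 72.9% with scramble and between 81.7% and 92.5% with siRNA. *ITGB5* made up nearly all of the rest. The summed alpha chains had 56.8 ± 5.87 CPM per kb with scramble and 64.4 ± 2.15 with siRNA, so alpha and beta chains were about level with scramble and the beta chains were above the alpha chains with siRNA. Within the alpha chains the share of *ITGAX* went from between 9.54% and 11.6% to between 15.2% and 19.7%. These shares carry the same reads as the fold changes above and are a description of them.

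In the laminin families, 1 or 2 chains made up nearly all of the counted level under both conditions. The doubt about the counting given above holds for the chains with few or no reads. *LAMB3* held between 93.3% and 94.4% of the beta chain level with scramble and between 91.9% and 93.4% with siRNA. *LAMC1* held at least 96.0% of the gamma chain level with scramble and at least 93.4% with siRNA. The alpha chain level was split between *LAMA1*, with 50.4% to 61.5% with scramble and 42.3% to 53.5% with siRNA, and *LAMA5*, and the ranges overlapped.

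**Figure D5:**
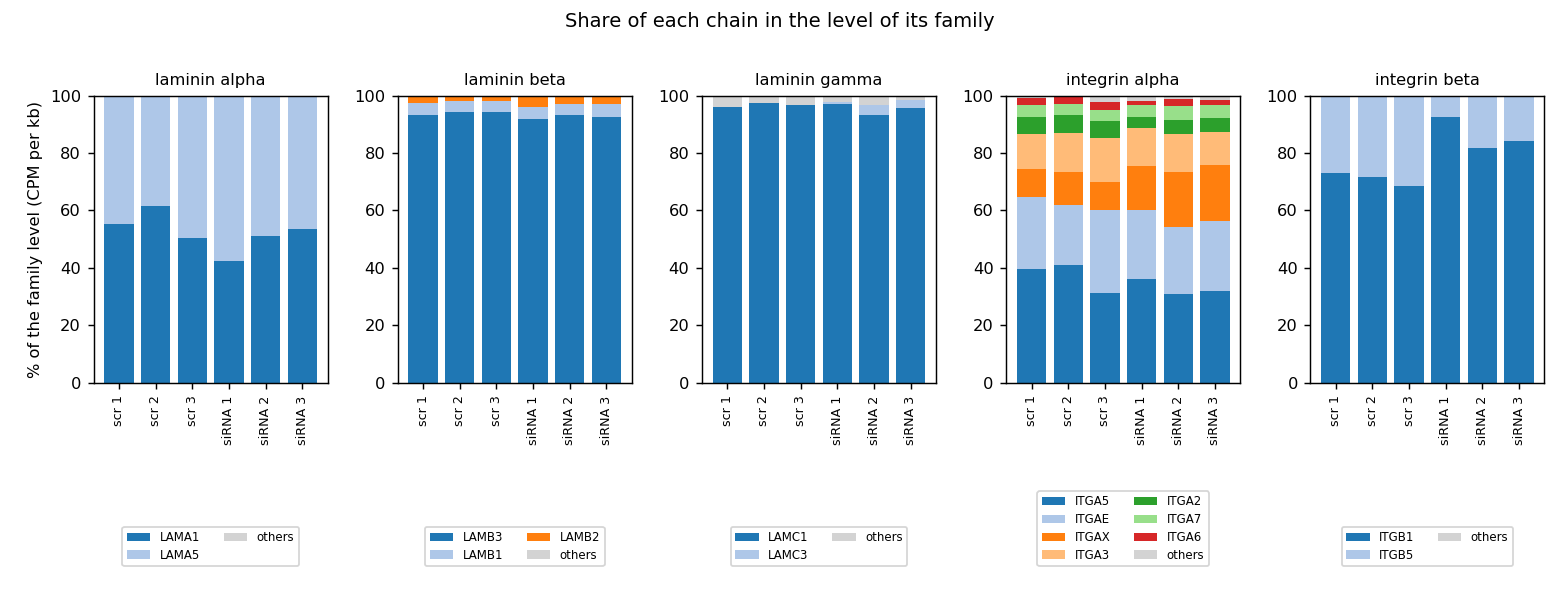
Share of each chain in the summed level of its family (CPM per kb of canonical transcript, each bar 100%) in the 3 scramble (scr) and 3 SNHG15 siRNA libraries; the remaining chains are grey. *LAMB3* and *LAMC1* hold nearly all of the counted level of their families in all 6 libraries, and the share of *ITGB1* is higher in the siRNA libraries.

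Read as complexes, few known trimers and pairs had all of their chains among the tested genes. Of 11 laminin trimers listed, 4 did, the combinations of *LAMA1* or *LAMA5* with *LAMB1* or *LAMB2* and *LAMC1*. *LAMB3* was at 310 CPM per kb with scramble while *LAMA3*, its alpha chain partner in the epithelial laminin, was at 0. Of 24 integrin pairs listed, 8 had both chains tested, 7 of them with *ITGB1* and the other with *ITGB5*. *ITGAX* and *ITGAE* were measured without their listed partners *ITGB2* and *ITGB7*. For a partner at or near 0, a low level and reads lost in the counting cannot be told apart. RNA levels do not show which pairs were formed.

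The list of adhesion machinery holds links to the cytoskeleton inside the cell and integrin partners at its surface, such as tetraspanins. Of its 47 genes, 39 were tested, with a median log2 fold change of 0.06. At an adjusted p under 0.05, 1 was higher and 0 were lower. That is 2.56% of the tested genes, beside 5.36% of all genes. The higher gene was *CD82*, a tetraspanin that binds integrins at the membrane, with 14.1, 10.9 and 15.1 CPM with scramble and 26.8, 21.0 and 19.4 CPM with siRNA and a log2 fold change of 0.77 (SE 0.18, adjusted p = 0.0298, edgeR). Its groups did not overlap. It lost the call without any 1 of the scramble libraries (adjusted p = 0.0918, 0.159 and 0.0615 without replicates 1, 2 and 3) and without siRNA replicate 2 (0.0615). The most abundant gene per length on this list was *CD81*, another tetraspanin, at 353 CPM per kb with scramble and 367 with siRNA. *ILK*, the integrin-linked kinase, had 3 or fewer counts in every library.

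Of the ligands and receptors outside both families, 26 of 57 genes were tested, 0 were higher and 1 was lower, and the median log2 fold change was -0.08. That is 3.85% of the tested genes, beside 5.36% of all genes, and at an unadjusted p under 0.05 it was 7 of 26, beside 22.5%. The matrix ligands had 7 of 31 tested and 0 called by edgeR (2 at an unadjusted p under 0.05), with *COL6A1*, a collagen VI chain, as the most abundant per length at 5.34 CPM per kb with scramble and 7.497 with siRNA. The cell surface ligands of integrins had 11 of 17 tested and 0 called by edgeR (2 at an unadjusted p under 0.05), with *ADAM15* at 69.9 and 65.3 CPM per kb. DESeq2 also called none in these lists. Without the filter edgeR called *CDH1*, one of the ligand and receptor genes, as lower, under the limit of that fit given for *LAMC3*. The laminin receptors that are not integrins had 8 of 9 tested and 1 called, *CD44*, best known as the receptor for hyaluronan. *CD44* had 134, 134 and 142 CPM with scramble and 76.7, 101 and 99.1 CPM with siRNA, and its log2 fold change was -0.57 (SE 0.13, adjusted p = 0.0274, edgeR). All siRNA libraries were lower, but the call was lost without any 1 of the scramble libraries (adjusted p = 0.0952, 0.101 and 0.0960 without replicates 1, 2 and 3) and without siRNA replicate 2 (0.0546). *RPSA*, a ribosomal protein that also acts as a laminin receptor, was the most abundant of them per length at 785 and 755 CPM per kb.

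The members also varied among libraries of one condition. Scramble replicate 2 had the highest scramble level in 13 of the 17 tested members, and the median deviation of the 17 from their group means was 0.17 on the log2 scale there, beside 0.00 over all genes. In the siRNA libraries the median deviations of the 17 lay between -0.02 and 0.02. Without scramble replicate 2 the negative log2 fold changes were nearer to 0, or above it for *ITGA5* (0.15), at -0.06 for *LAMB3*, -0.02 for *LAMB1*, -0.14 for *ITGA2*, -0.16 for *LAMC1* and -0.22 for *LAMA1*, while *ITGB1* was at 1.44 and *ITGAX* at 1.18 and both passed the test.

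Several members share exon bases with other genes, which matters where the counting did not use the strand. The largest overlap was that of *ITGB7* with *ZNF740* on the opposite strand, 42.3% of the *ITGB7* exon bases. *ITGB7* had at most 1 count while *ZNF740* had 68 to 345. How reads in shared stretches were counted is not given, so these counts do not show whether the strand was used. *LAMA5* overlaps *ADRM1* over 1.71% of its exon bases and *LAMB1* overlaps *DLD* over 1.61%, and both neighbours are on the opposite strand, with at least 547 counts in every library. *ITGAX*, *LAMB2* and *LAMC1* overlap no annotated exon of another gene.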

How the data were processed

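RNA from LoVo cells given scramble or *SNHG15* siRNAs was sequenced in 3 libraries each. The authors deposited raw counts of reads per Ensembl gene, with no normalization. The submitters' processing notes name STAR, featureCounts and hg19, whereas the methods name bowtie2, hg19 and DESeq2. The annotation and the treatment of strand and of multiply placed reads are not given in the sources used here. The labels name TRIzol and a stranded mRNA kit with paired-end reads. For the sequenced RNA the methods name a Maxwell extraction kit instead of TRIzol.

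Of 63677 rows, 55665 matched GENCODE release 44 on GRCh37, which gave names and positions. With edgeR 4.0.16 (R 4.3.3), genes were filtered by filterByExpr (minimum count 10, total 15), scaled by TMM (factors 0.961 to 1.06) and tested by the quasi-likelihood test without a block, with Benjamini-Hochberg adjustment over the 12507 genes left. SE was the absolute fold change over the root of F. CPM used the TMM-scaled library sizes. Counting intervals are exact binomial, at 95%. The steps were tested on simulated data. Alternatives were DESeq2 1.42.0, RLE and upper-quartile factors, no filter, at least 10 counts in every library, loess offsets (span 0.3) for GC content and exon length, a replicate block alone or together with the GC offset, and omitting a library.

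No pair of replicates agreed within sampling noise (chi-square over its degrees of freedom 4.34 or more). Every member is named but 1, which is not reported here, and from each other list the genes past the threshold, up to 3 in each direction, and the most abundant per length. The 20 genes that nearly every cell uses, *ESAM*, *ITGB1-DT*, *HASPIN*, *ZNF740*, *ADRM1*, *DLD* and *ILK* were named after their values were seen. The lists were written from general knowledge. *CDH1* stands in 2 of them. The members and lists were chosen with earlier results of these data known. The primer sequences are the study's and the promoter windows RefSeq's.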

Additional observations from a re-analysis of the deposited data

How the results depend on the processing

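*ITGB1* kept its direction and passed the test in all 9 other settings (log2 fold change 1.31 to 1.39) and *ITGAX* likewise (0.94 to 1.01). The number of laminin and integrin genes called was 2 under 8 of the 9 settings and 5 without the filter. The other 3 without the filter were *ITGAV*, *LAMC3* and *LAMA1*. In that fit the p-values hardly reflect the spread of a single gene, as given for *LAMC3*. The number ran from 1 to 3 when each library was left out. The 3 came without siRNA replicate 1 and include *LAMC3*, which passed the filter there only through the siRNA libraries. That call is not used as a test of *LAMC3*. The number of genes called over the whole table was 671 as reported, 1312 without the filter, and 139 to 812 when each library was left out. With upper-quartile factors 515 of 745 called genes were higher, against 392 of 671. Of the adhesion machinery genes, 1 was called as reported, 2 with DESeq2, upper-quartile factors, no filter, or the replicate block with the GC offset, 3 with the GC offset, and 0 to 2 when each library was left out. Of the ligand and receptor genes, 1 was called as reported, 2 without the filter or with the GC offset, and 0 to 2 when each library was left out. The median log2 fold change of the tested members lay between -0.08 and 0.10 throughout.

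The sign turned only in members close to 0. *ITGA5*, at -0.02 as reported, was at 0.021 with upper-quartile factors, 0.0039 with at least 10 counts in every library, 0.0064 with the replicate block and 0.0044 with the replicate block and GC offset, and ran from -0.17 to 0.15 when each library was left out. *ITGA3* ran from -0.031 to 0.16 and *ITGB5* from -0.32 to 0.027 when each library was left out. The cause was not tested. The replicate numbers mark nothing shared in the labels, and the deviations of same-numbered libraries correlated at -0.07, 0.16 and -0.04, so only the libraries numbered 2 correlated best with their own number. With the replicate block, 543 genes were called over the table and 2 among the members, and the block changed no other call that the text gives. Without the filter, *ITGAV* was at 1.38 and *LAMA1* at -0.52, both past the threshold, under the limit of that fit given above.

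The 21 members that were not tested had too few counted reads for a fold change, and reads lost in the counting could not be told from a low level. The table gives no isoforms. With 3 libraries in each condition, an exact permutation test of a single gene cannot go below p = 0.1.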
